A study of Curvularia clavata with 15 samples.

Results

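The comparison set 3 libraries of the ΔCclaeA mutant of Curvularia clavata strain J1 against 3 libraries of the wild type (WT), 6 of the 15 libraries of the series, chosen by genotype and medium as labelled. Curvularia clavata is a filamentous fungus of the Pleosporales, and CclaeA is named after laeA. All 6 samples were mycelia grown with shaking at 200 rpm and 30 °C for 4 days in 100 mL of Vogel's minimal medium with 2% lignosulfonate and 0.25% glucose. The remaining libraries, 3 each, were the Δrpn-4 and Δtah-1 mutants in the same medium and WT with 2% glucose and no lignosulfonate. The only genetic change named for ΔCclaeA is the deletion. The labels do not say how the mutant was made, whether it is 1 clone, or whether samples of a group came from different cultures. The p-values therefore rest on differences among samples that may in part be technical. The series asks which regulators act on lignin use and laccase activity, and this contrast asks how the transcriptome on lignosulfonate differs without CclaeA.

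LaeA was described in Aspergillus as a nuclear protein with a methyltransferase-like domain that acts with the velvet proteins VeA and VelB. There it is known as a global regulator of secondary metabolism, whose genes often lie side by side in clusters, and of development. In Trichoderma reesei its homologue is needed for the expression of cellulase genes. Lignosulfonate is a water-soluble, sulfonated lignin from wood pulping, and laccases are copper oxidases that attack the phenolic parts of lignin.

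Each library listed 1 value for each of 10170 gene IDs, in FPKM (fragments per kilobase of transcript and 1000000 mapped fragments). Without a table of gene names or products, genes are given by ID, with no role, and the CclaeA gene and the laccase genes were not looked up. The genotype labels were therefore not checked against the level of the deleted gene. The FPKM sum was 835087 ± 20025 in ΔCclaeA and 914412 ± 36986 in WT, and the median FPKM was 30.4 ± 0.351 in ΔCclaeA and 32.9 ± 1.78 in WT (SD, n = 3 each). Both differences gave an exact two-sided permutation p of 0.1, the smallest that 3 against 3 allows. Library depth is not given. Relative depth, estimated from the steps between low values, ran from 0.959 to 1 in ΔCclaeA and from 0.812 to 1.01 in WT, relative to ΔCclaeA replicate 1. These estimates are rough, and the lowest, for WT replicate 2, rested on 14 of 194 low IDs at the commonest ratio. Across tested IDs, Pearson's r on the log2(FPKM + 1) scale was 0.993 in all pairs within ΔCclaeA, 0.976 to 0.989 within WT and 0.914 to 0.922 between the groups; this describes the libraries, since genes are not independent replicates. The median SD over replicates was 0.0997 in ΔCclaeA and 0.159 in WT on that scale. Headers of the WT files give the unit and those of the ΔCclaeA files give none, so genotype and kind of file cannot be told apart.

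More transcripts were lower than higher in ΔCclaeA. Of 9265 tested IDs, 852 (9.2%) were lower and 312 (3.37%) were higher in ΔCclaeA, 12.6% in all. A call needed an adjusted p under 0.05 in limma and a change of at least 2-fold. With no minimum fold change 2000 IDs (21.6%) were lower and 1416 (15.3%) higher, 36.9% in all. After median-of-ratios scaling, which sets the typical gene to no change, 656 IDs (7.08%) were lower and 403 (4.35%) higher, 11.4% in all. The excess of lowered IDs was thus present with both scalings and smaller with the second, with 26.8% of the 2-fold calls higher as deposited and 38.1% after scaling. The scaling moved the middle of all tested IDs by 0.10, to a median log2 fold change of 0.00 in place of -0.11.

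Nearly all higher calls, and fewer of the lower ones, were shared between the scalings. Among the IDs called as deposited, 311 of the 312 higher and 656 of the 852 lower were called in the same direction after scaling, and 0 were called in the opposite one. The 196 IDs that were lower only as deposited lay close to the threshold. Their median log2 fold change was -1.06 as deposited and -0.94 after scaling, and the strongest of them was -1.34 as deposited. Another 92 IDs were higher only after scaling, with a median of 1.04. Leaving out each of the 6 libraries in turn kept 677 of the lower and 247 of the higher calls in all 6 fits.

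**Figure D1:**
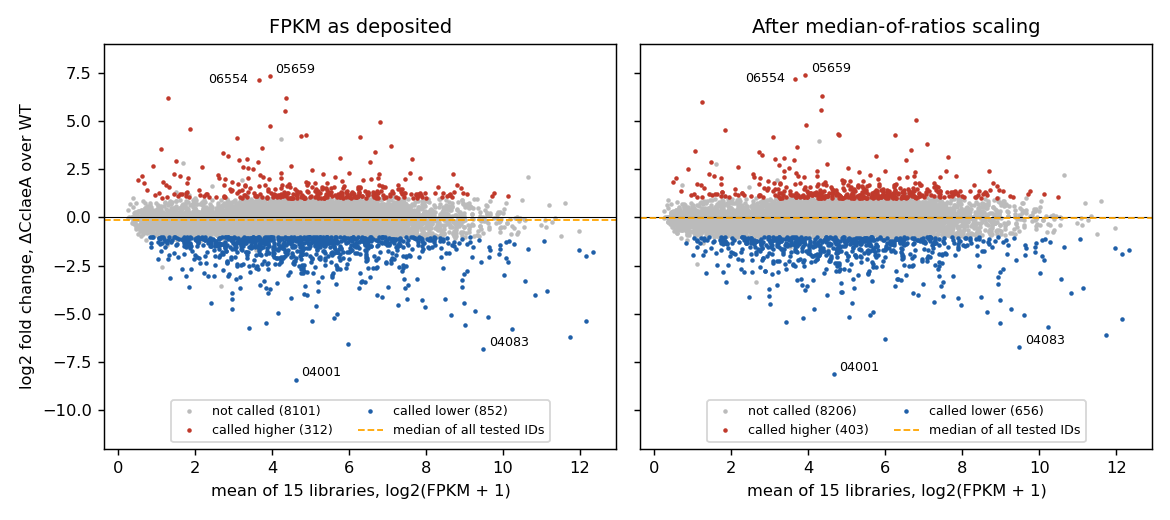
Log2 fold change of ΔCclaeA over WT on the log2(FPKM + 1) scale (y) against the mean level of each tested ID over all 15 libraries (x), for FPKM as deposited (left) and after median-of-ratios scaling (right). Red points are IDs called higher (312 and 403), blue points IDs called lower (852 and 656), numbers mark the 4 IDs with the largest changes, and the dashed line is the median, -0.11 as deposited and 0.00 after scaling.

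Large changes were few, and the lowered side was longer. At least 4-fold, 199 IDs (2.15%) were lower and 52 (0.561%) higher, and at least 16-fold, 30 (0.324%) were lower and 12 (0.13%) higher. After scaling the 4-fold counts were 159 lower (1.72%) and 57 higher (0.615%), and the 16-fold counts 28 lower (0.302%) and 12 higher. With a pseudocount of 0.1 in place of 1, the 16-fold counts were 50 lower and 18 higher, since the pseudocount of 1 shrinks the changes of IDs near 0. At the other end, 6191 IDs (66.8%) had a 95% confidence interval that lay within a 2-fold change either way as deposited, and 6471 (69.8%) after scaling. Another 1910 IDs as deposited were neither called nor bounded in this way, and for these a 2-fold difference was neither shown nor bounded.

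The groups separated far more often than the calls show. All 3 ΔCclaeA libraries lay below all 3 WT libraries for 3351 IDs (36.2%) as deposited and for 2830 (30.5%) after scaling. They lay above for 2280 (24.6%) as deposited and 2897 (31.3%) after scaling. With no minimum fold change the scaled values gave 2005 lower (21.6%) and 1925 higher IDs (20.8%), 42.4% in all. Median-of-ratios scaling centres the typical ID at no change, so the near-even balance of these small differences follows from the centring. Of the called IDs as deposited, 850 of 852 lower and 310 of 312 higher had groups that did not overlap. The calls rest on the same libraries, so this follows largely from the rule for a call.

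Changed IDs occurred at every level of expression. Tested IDs were split into 4 equal bins by their mean on the log2(FPKM + 1) scale over all 15 libraries, with bounds near 11.5, 31.0 and 69.4 FPKM between the bins. As deposited, the share called lower was 10.9% in the lowest bin, 8.55% and 7.08% in the middle ones and 10.3% in the highest. The share called higher was 3.15%, 3.41%, 2.72% and 4.19% in the same order. After scaling the lowest bin had 7.77% lower and 3.37% higher, and the highest had 8.42% lower and 5.61% higher. The median log2 fold change of the lowest bin was -0.24 as deposited and -0.15 after scaling, and that of the highest was -0.06 and 0.05. An ID enters the lowest bin only if it reached 1 FPKM in at least 3 of the 15 libraries, so IDs silent in all groups are not in these shares.

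**Figure D2:**
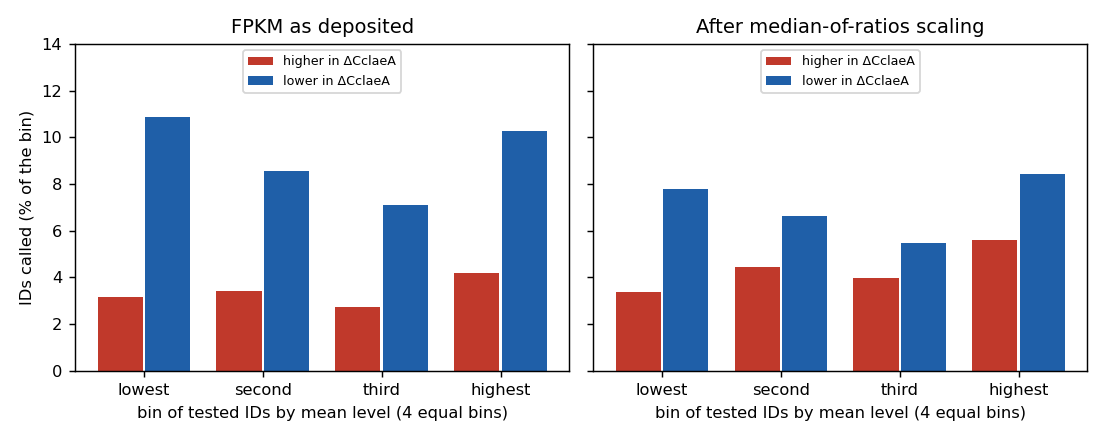
Share of IDs called higher (red) or lower (blue) in ΔCclaeA, in percent of each of 4 equal bins of the tested IDs ordered by mean level over all 15 libraries, as deposited (left) and after median-of-ratios scaling (right). Lower calls exceed higher calls in every bin and with both scalings, for example 10.3% against 4.19% in the highest bin as deposited.

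The largest changes set the groups far apart. The 2 largest rises and the 2 largest falls among called IDs are described here, and they were the same 4 IDs with both scalings. yc1106_05659 was at 824, 880 and 873 FPKM in the 3 ΔCclaeA libraries, against 4.73, 3.41 and 5.05 FPKM in the WT libraries. The mean was 195-fold higher in ΔCclaeA on the linear scale, and the log2 fold change was 7.33 (95% confidence interval 6.80 to 7.86, limma adjusted p = 1.77e-11). Its means were 2.54 FPKM in Δrpn-4, 7.76 FPKM in Δtah-1 and 5.78 FPKM in WT on glucose, so the high level was seen in none of the other 4 groups.

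yc1106_06554 was at 833, 887 and 763 FPKM in the ΔCclaeA libraries, against 4.87, 4.15 and 5.56 FPKM in the WT libraries. No library of the pair of groups came near the other group. The mean was 170-fold higher in ΔCclaeA, and the log2 fold change was 7.15 (95% confidence interval 6.77 to 7.53, limma adjusted p = 1.02e-12). Its means were 8.48 FPKM in Δrpn-4 and 5.03 FPKM in Δtah-1, and WT on glucose had 0.17, 0.05 and 0.42 FPKM.

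yc1106_04001 was all but absent from the mutant, at 0.16, 0.08 and 0.40 FPKM in ΔCclaeA, against 423, 390 and 421 FPKM in WT. The log2 fold change was -8.42 (95% confidence interval -8.81 to -8.02, limma adjusted p = 3.94e-13). WT on glucose was as low as the mutant, at 0.83, 0.27 and 0 FPKM. Whether this ID is the deleted gene was not tested.

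yc1106_04083, an abundant transcript of WT, was at 37.1, 19.0 and 31.5 FPKM in ΔCclaeA, against 2844, 3923 and 3388 FPKM in WT. The log2 fold change was -6.85 (95% confidence interval -7.37 to -6.33, limma adjusted p = 3.73e-11). It kept a low but measurable level in every ΔCclaeA library.

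All 4 IDs differed between ΔCclaeA and each of the other mutants in a direct contrast of the same fit. The IDs were chosen for their extreme values in ΔCclaeA against WT, and these contrasts reuse the same ΔCclaeA libraries. That choice favours large differences, so the contrasts describe the 4 IDs and are no independent test. Against Δrpn-4 the log2 fold changes as deposited were 7.92 for yc1106_05659, 6.45 for yc1106_06554, -7.59 for yc1106_04001 and -9.03 for yc1106_04083, where the largest limma adjusted p was 2.4e-12. After median-of-ratios scaling they were 7.31, 5.75, -8.16 and -9.78 in the same order. Against Δtah-1 they were 6.73, 7.13, -5.64 and -2.02 as deposited, with limma adjusted p at most 3.58e-06. After scaling the values against Δtah-1 were 6.46, 6.85, -5.75 and -2.30. yc1106_04083 was also low in Δtah-1, at a mean of 121 FPKM.

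**Figure D3:**
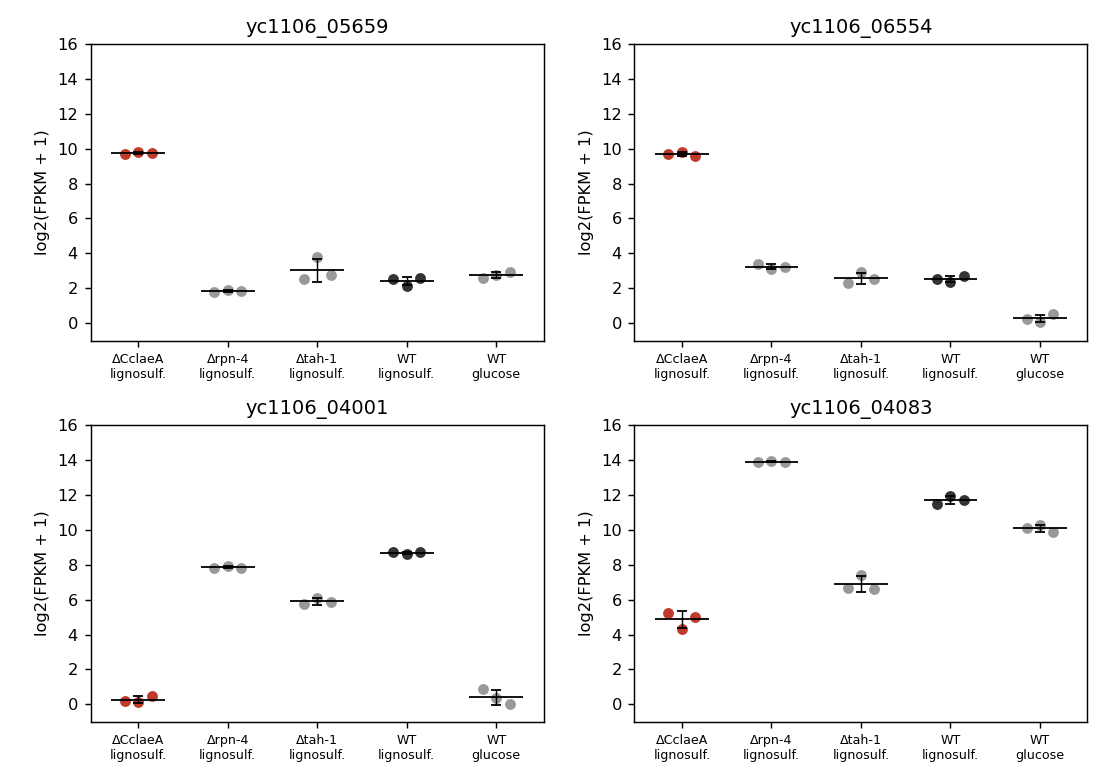
Values of the 4 named IDs in each library as log2(FPKM + 1), with the 3 libraries of each group as points and the group mean ± SD as lines. ΔCclaeA (red) stands at 824 to 880 FPKM for yc1106_05659 and 763 to 887 FPKM for yc1106_06554, far above the other groups, and under 1 FPKM for yc1106_04001, where only WT on glucose is as low.

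A few IDs changed from silent to expressed or the reverse. These were chosen after their values were seen, as IDs with at least 10 FPKM in all 3 libraries of one group and under 1 FPKM in all 3 of the other. Under this rule 5 IDs were on in WT and off in ΔCclaeA, and 2 were on in ΔCclaeA and off in WT. The first count was 8 without WT replicate 2 or without ΔCclaeA replicate 3, and the second was 1 with equal library sums.

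yc1106_09907 was one of the pair switched on, at 71.6, 66.6 and 75.7 FPKM in ΔCclaeA, and it was listed at 0 in all 3 WT libraries on lignosulfonate. It was also listed at 0 in all Δrpn-4 and Δtah-1 libraries, and its mean was 0.27 FPKM in WT on glucose. The other, yc1106_07289, was at 17.5, 19.0 and 15.5 FPKM in ΔCclaeA, against 0.50, 0.96 and 0.35 FPKM in WT.

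Among the 5 switched off, yc1106_02398 was listed at 0 in all 3 ΔCclaeA libraries, against 28.3, 17.6 and 17.7 FPKM in WT. It had means of 6.53 FPKM in Δrpn-4 and 25.6 FPKM in Δtah-1, and was listed at 0 in WT on glucose as well. yc1106_09966 was at 0.36, 0.50 and 0.12 FPKM in ΔCclaeA, against 76.9, 88.5 and 45.9 FPKM in WT. The remaining ones were yc1106_04001, yc1106_04040 and yc1106_06981. The last 2 had means of 0.587 and 0.527 FPKM in ΔCclaeA, 162 and 101 FPKM in Δtah-1, and 12.3 and 16.1 FPKM in WT. After median-of-ratios scaling the set again had 5 IDs, with yc1106_00066 in place of yc1106_04040.

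The most abundant transcripts of the groups differed. Only 3 IDs were among the 10 most abundant of both groups. Of the 10 most abundant IDs of WT, 7 were lower in ΔCclaeA and 0 higher with either scaling. Of the 10 most abundant of ΔCclaeA, 3 were higher as deposited and 4 after scaling, and 0 lower. Over all tested IDs, 9.2% were lower and 3.37% higher as deposited, and 7.08% lower and 4.35% higher after scaling. Choosing IDs by their level in one group favours these directions, so the counts describe the lists.

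yc1106_06890, the third most abundant ID of WT, was at 220, 137 and 152 FPKM in ΔCclaeA, against 11793, 12830 and 12653 FPKM in WT. Its log2 fold change was -6.22 (95% confidence interval -6.72 to -5.71, limma adjusted p = 8.3e-11). yc1106_07527, in second place in WT, was at 583, 463 and 285 FPKM in ΔCclaeA, against 16111, 19140 and 18170 FPKM in WT, a log2 fold change of -5.38 at a limma adjusted p of 1.64e-09. Both stood lower in the ΔCclaeA ranking, at places 910 and 236. The means of yc1106_06890 in the other mutants were 62381 FPKM in Δrpn-4 and 790 FPKM in Δtah-1, and those of yc1106_07527 were 64455 FPKM in Δrpn-4 and 1126 FPKM in Δtah-1. Low levels were thus seen in Δtah-1 too, and the direct contrast of ΔCclaeA over Δtah-1 gave log2 fold changes of -2.22 for yc1106_06890 (limma adjusted p = 1.0e-06) and -1.39 for yc1106_07527 (limma adjusted p = 0.000444). After scaling these were -2.51 and -1.68. Both IDs were singled out after their ΔCclaeA values were seen.

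The most abundant ID of WT did not move with them. yc1106_09585 was at 23060, 25507 and 25771 FPKM in ΔCclaeA, against 27146, 23957 and 25448 FPKM in WT, and the groups overlapped. Its log2 fold change was -0.04, with a 95% confidence interval of -0.78 to 0.69 as deposited and -0.55 to 0.69 after scaling, which bounds any change to less than 2-fold. The same ID had a mean of 2.74 FPKM in WT on glucose.

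The most abundant ID of ΔCclaeA was uncertain. yc1106_06939 was at 28684, 31507 and 36114 FPKM in ΔCclaeA, against 8518, 14440 and 3284 FPKM in WT. The groups did not overlap, and the log2 fold change of 2.11 had a 95% confidence interval of -0.50 to 4.72 (limma adjusted p = 0.194). That interval rests on the spread shared by all 5 groups. WT on lignosulfonate spread widely, and WT on glucose, outside the comparison, was at 54.28, 0 and 0 FPKM. With only the 6 compared libraries in the fit, the limma adjusted p was 0.018 and the ID passed the call.

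yc1106_01888, which was called higher, was at 11193, 11344 and 11520 FPKM in ΔCclaeA, against 4670, 4425 and 4553 FPKM in WT. That was a log2 fold change of 1.32 (95% confidence interval 0.76 to 1.87, limma adjusted p = 0.00109). yc1106_01890 was at 3693, 4099 and 4155 FPKM in ΔCclaeA, against 1453, 1247 and 1332 FPKM in WT, at a log2 fold change of 1.57 (95% confidence interval 1.15 to 1.99, limma adjusted p = 2.31e-05). The replicates of both groups lay close together and apart from each other.

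**Figure D4:**
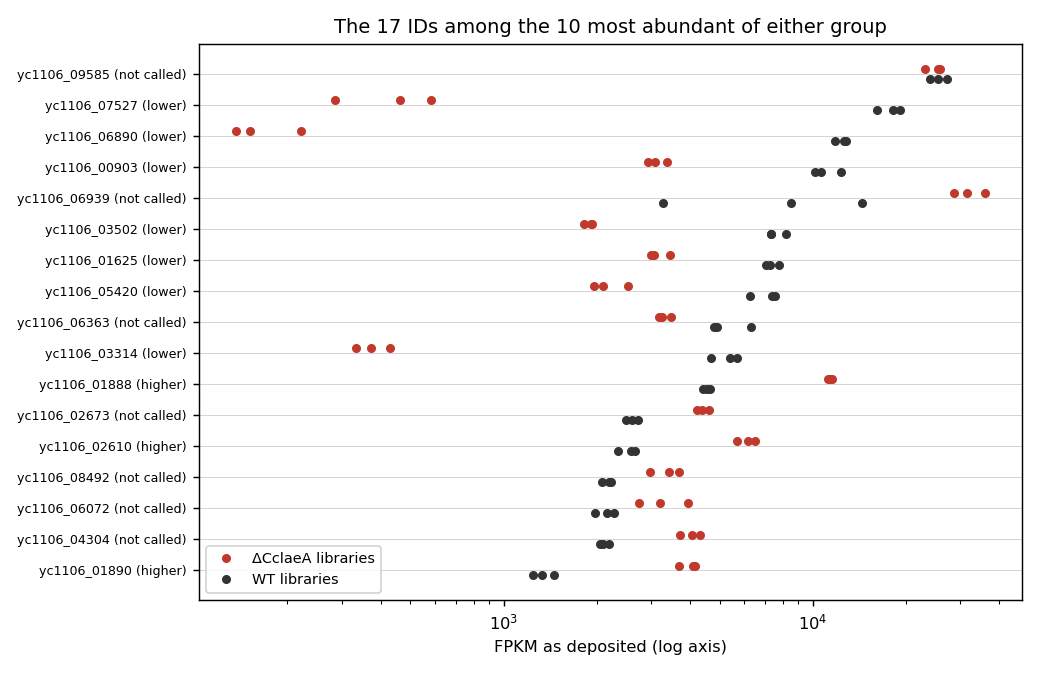
FPKM as deposited (log axis) in each ΔCclaeA library (red) and WT library (dark) for the 17 IDs that are among the 10 most abundant of either group, ordered by their WT mean, with the call in brackets. yc1106_09585 lies between 23060 and 27146 FPKM in both groups, while yc1106_07527 and yc1106_06890 reach at most 583 and 220 FPKM in ΔCclaeA.

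Called IDs took up a changed share of the FPKM sum. These shares describe lists that were chosen by the same contrast and test nothing. The 852 lower IDs held 5.90% ± 0.0204 of the sum in ΔCclaeA and 23.1% ± 1.01 in WT, and the 312 higher IDs held 11.8% ± 0.103 in ΔCclaeA and 3.82% ± 0.203 in WT (SD, n = 3 each). The lower IDs held 46.1% ± 0.140 in Δrpn-4, 16.1% ± 1.18 in Δtah-1 and 16.6% ± 0.840 in WT on glucose. The smaller part of the loss lay in the 30 IDs that were at least 16-fold lower, and the larger part in the other lower IDs. These 30 IDs held 0.170% ± 0.0343 in ΔCclaeA, 22.8% ± 0.667 in Δrpn-4, 1.05% ± 0.0442 in Δtah-1, 5.98% ± 0.615 in WT on lignosulfonate and 2.94% ± 0.313 in WT on glucose.

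Medians of the lists in the 5 groups were as follows. The median of group means over the 852 lower IDs was 15.1 FPKM in ΔCclaeA, 27.7 in Δrpn-4, 45.1 in Δtah-1, 52.1 in WT on lignosulfonate and 13.8 in WT on glucose. For the 312 higher IDs it was 90.8 FPKM in ΔCclaeA, 21.3 in Δrpn-4, 21.3 in Δtah-1, 31.6 in WT on lignosulfonate and 25.1 in WT on glucose. Over all tested IDs the medians were 36.1 FPKM in ΔCclaeA, 20.9 in Δrpn-4, 30.0 in Δtah-1, 38.6 in WT on lignosulfonate and 33.7 in WT on glucose.

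Called IDs often had neighbours in the ID numbering that were called the same way. Neither the labels nor the files say whether the numbering follows the genome, or whether neighbouring genes overlap and share reads. As deposited, 276 of the 852 lower IDs (32.4%) had a lower ID directly beside them, against 14.2% of the other tested IDs. Among the 312 higher IDs, 81 (26.0%) had a higher neighbour, against 5.52% of the other tested IDs. After scaling the shares were 28.2% against 11.3% for lower and 25.3% against 7.19% for higher IDs. Runs of at least 3 consecutive IDs called the same way numbered 26 on the lower side and 6 on the higher side as deposited, and 17 and 7 after scaling. These counts describe the numbering and carry no test.

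The longest lower run was yc1106_04667 to yc1106_04672, 6 IDs that were lower with both scalings. Its median of group means was 43.4 FPKM in ΔCclaeA, 76.3 in Δrpn-4, 117 in Δtah-1, 296 in WT on lignosulfonate and 74.3 in WT on glucose. The log2 fold changes ran from -3.09 to -1.45, with limma adjusted p at most 0.0015. Its most changed member, yc1106_04671, was at 15.7, 18.9 and 16.01 FPKM in ΔCclaeA, against 170, 151 and 134 FPKM in WT. The most abundant member, yc1106_04667, had a higher mean in WT on glucose, 3342 FPKM, than in WT on lignosulfonate, 1257 FPKM. The other members had lower means in WT on glucose than in WT on lignosulfonate.

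The next lower run, yc1106_01974 to yc1106_01978, had 5 IDs with log2 fold changes of -3.92 to -1.27. Its median of group means was 8.28 FPKM in ΔCclaeA, 71.1 in WT on lignosulfonate and 3.41 in WT on glucose. Within it, yc1106_01976 was at 3.82, 5.43 and 2.46 FPKM in ΔCclaeA, against 78.2, 60.7 and 74.5 FPKM in WT. The third, yc1106_04108 to yc1106_04112, also had 5 IDs and a median of 2.89 FPKM in ΔCclaeA and 15.3 in WT. It was the weakest, and yc1106_04111 missed the 2-fold threshold after scaling, with a log2 fold change of -1.12 as deposited. After scaling the third place was shared by 3 lower runs of 4 IDs. The one with the largest median change was yc1106_06326 to yc1106_06329, in which yc1106_06327 was at 29.7, 25.6 and 26.1 FPKM in ΔCclaeA, against 983, 808 and 978 FPKM in WT.

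On the higher side the longest run was yc1106_06297 to yc1106_06301, 5 IDs that were higher with both scalings. Its median of group means was 95.1 FPKM in ΔCclaeA, 18.7 in Δrpn-4, 22.5 in Δtah-1, 7.09 in WT on lignosulfonate and 2.39 in WT on glucose. One member carried most of the size. yc1106_06298 was at 337, 416 and 353 FPKM in ΔCclaeA, against 7.44, 8.32 and 5.51 FPKM in WT, a log2 fold change of 5.52 (95% confidence interval 4.98 to 6.06, limma adjusted p = 4.21e-10). The other members had log2 fold changes of 1.46 to 3.00. One of them, yc1106_06301, had means of 159 FPKM in ΔCclaeA, 287 in Δrpn-4 and 233 in WT on glucose. Its level was thus not highest in ΔCclaeA, while the rest of the run had its highest means there.

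The run yc1106_04344 to yc1106_04347 had 4 IDs, with log2 fold changes of 1.84 to 4.18 and a median of 340 FPKM in ΔCclaeA and 28.2 in WT. Its member yc1106_04345 was at 626, 545 and 555 FPKM in ΔCclaeA, against 32.3, 29.8 and 29.9 FPKM in WT on lignosulfonate. The mean of yc1106_04345 was 368 FPKM in WT on glucose, 25.3 in Δrpn-4 and 15.7 in Δtah-1, so ΔCclaeA was not the only group with a high level. The run yc1106_04614 to yc1106_04616 was 1 of 4 higher runs of 3 IDs as deposited, and the one with the largest median change. It had a median of 202 FPKM in ΔCclaeA and 66.2 in WT, led by yc1106_04615 at a log2 fold change of 4.72.

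After scaling, yc1106_01886 to yc1106_01890 formed a second run of 5 higher IDs, with log2 fold changes of 1.06 to 1.68. As deposited 4 of its 5 IDs were called, and yc1106_01889 missed the 2-fold threshold at a log2 fold change of 0.95. This run holds the abundant yc1106_01888 and yc1106_01890 described above. The means of yc1106_01888 were 1769 FPKM in Δrpn-4, 31.7 in Δtah-1 and 3.94 in WT on glucose. Those of yc1106_01890 were 640, 5.72 and 0.09 FPKM in the same order.

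A neighbour pair stood near the top of the rises without forming a run of 3. yc1106_05658, directly before the named yc1106_05659, was at 1021, 1199 and 1103 FPKM in ΔCclaeA, against 12.9, 11.5 and 18.0 FPKM in WT. Its log2 fold change of 6.22 (95% confidence interval 5.69 to 6.75, limma adjusted p = 1.07e-10) was the third largest rise. Its mean was 0.57 FPKM in WT on glucose.

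**Figure D5:**
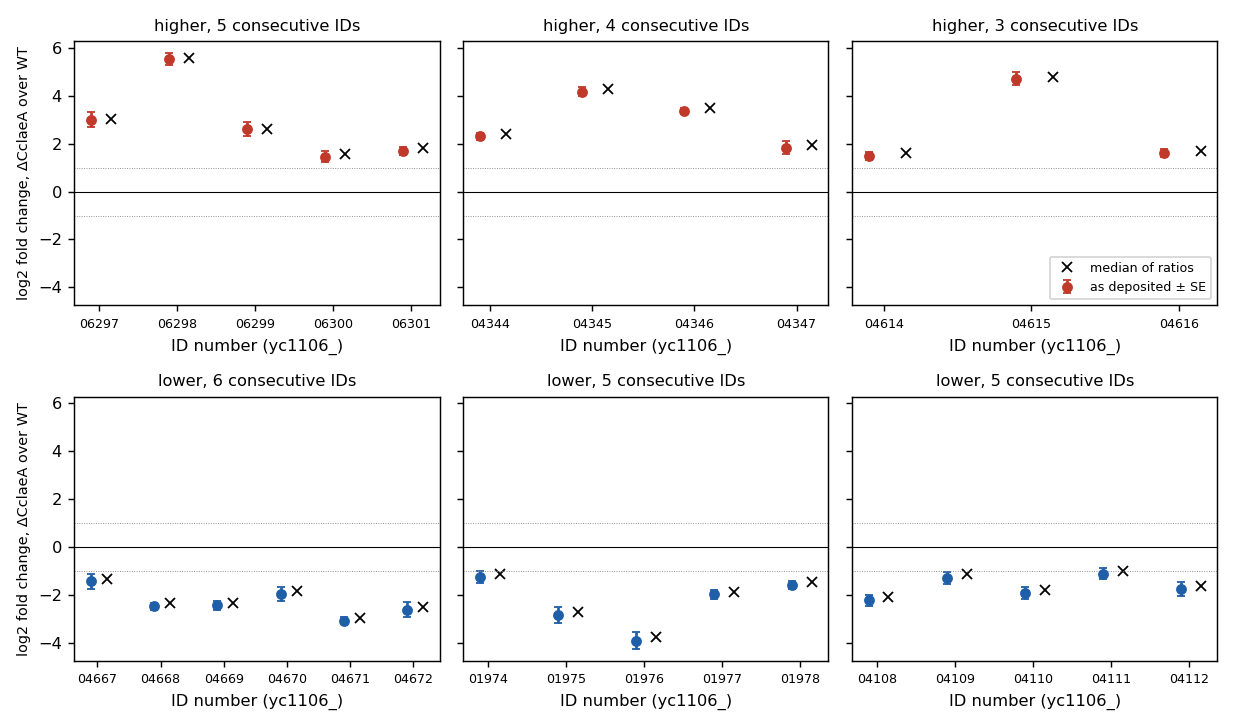
Log2 fold change of ΔCclaeA over WT for each ID of the 3 longest runs of consecutive IDs called higher (top, red) and lower (bottom, blue), ties going to the larger median change, as deposited with its SE (circles) and after median-of-ratios scaling (crosses), with dotted lines at a 2-fold change. The 6 runs hold 5, 4 and 3 higher and 6, 5 and 5 lower IDs, and within each the size differs between members, from 1.46 to 5.52 in yc1106_06297 to yc1106_06301.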

How the data were processed

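FPKM per gene ID were deposited by the authors, 1 file per library, and FPKM divides fragments by transcript length and by the library's mapped fragments. The unit is named in the WT file headers, and the mutant files have values of the same form and range. Tools in the submitters' processing notes, with no role, are RSEM 1.3.3, HISAT2 2.1.0, fastp 0.19.5 and DESeq2. No genome build is named by the labels or headers, and no counts were used. Within each of the 2 compared groups, at most 0.853% of the values of tested IDs were identical in any pair of libraries.

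IDs with at least 1 FPKM in at least 3 of 15 libraries were tested (9265 of 10170). A linear model with 1 mean for each of the 5 groups was fitted to log2(FPKM + 1) of all 15 libraries by limma 3.58.1 (trend, robust) in R 4.3.3, so the groups share 1 estimate of the spread. This scale understates changes of low values. P-values were Benjamini-Hochberg adjusted over all tested IDs. Median-of-ratios size factors used the 8858 IDs above 0 in every library. The code of the fit was run on simulated data with independent noise and with changes only in IDs above a low level. That run checks the code and does not test how the fit suits these libraries. Relative depth was the commonest ratio between 2 libraries of values from 0.08 to 0.6 FPKM. Summaries used Python 3.11.15, NumPy 2.4.6, pandas 2.3.3, SciPy 1.17.1 and matplotlib 3.10.9.

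The rule for named IDs took the 2 largest rises, the 2 largest falls and the 3 longest runs in each direction, with ties going to the larger median change. Other IDs were chosen after their values were seen. The comparison, rules and lists were chosen with earlier results of these data known. Lists by gene function were planned and not run, since IDs were not matched to products. Alternatives were another scaling (median of ratios, or equal sums of 1000000 as in TPM), a pseudocount of 0.1, no filter, only the 6 libraries, the replicate number as a block, other fold minimums, and leaving out each library.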

Additional observations from a re-analysis of the deposited data

How the results depend on the processing

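The counts of called IDs stayed within 1.5 times under the other scalings, the pseudocount of 0.1, no filter, the 6 libraries alone and the replicate block, and no ID changed direction. With no minimum fold change 3416 IDs were called, 1416 higher and 2000 lower, and with at least 4-fold 251, 52 higher and 199 lower. The pseudocount of 0.1 raised the count at least 16-fold lower to 50 and the count at least 16-fold higher to 18. Leaving out 1 library gave 1096 to 1199 calls, 282 to 349 higher and 795 to 917 lower, with 12 to 13 at least 16-fold higher and 28 to 31 lower. The 4 named IDs were called in the same direction under every alternative run for them, with log2 fold changes of 7.19 to 7.60 for yc1106_05659, 7.06 to 7.39 for yc1106_06554, -10.49 to -8.04 for yc1106_04001 and -7.04 to -6.45 for yc1106_04083. Runs of at least 3 lower IDs numbered 22 to 29 without 1 library and 17 after median-of-ratios scaling, or 15 to 19 with that scaling and 1 library left out, an alternative added after seeing the data. IDs on in WT and off in ΔCclaeA numbered 5 to 8 without 1 library, and IDs on in ΔCclaeA and off in WT 2 to 3, or 1 with equal sums (TPM). No pairing of libraries by replicate number was detected: deviations from the group means of same-numbered ΔCclaeA and WT libraries correlated at -0.12, -0.05 and -0.06. A weak pairing could have been missed, and the labels do not say whether same-numbered samples were handled together. With the replicate block 1171 IDs were called, 314 higher and 857 lower. Depth is known only relatively, and IDs listed at 0 may be below detection.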
